A study of Mus musculus with 12 samples.

Results

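The metalloproteases that cut extracellular matrix and cell surface proteins, and the TIMP proteins that inhibit them, were followed here in mouse cardiac fibroblasts given the compound MCB-613-10-1. A gene was taken when its symbol was Mmp, Adam, Adamts, Adamtsl or Timp followed by a number, when the deposited annotation called it protein coding and when its raw counts over the 12 libraries summed to at least 20. The name and biotype were met by 70 genes and the count by 63 of them, out of 29030 genes in the 2 deposited tables. The 63 comprised 20 matrix metalloproteinases (MMP), 19 ADAM genes, 16 ADAMTS genes, 5 ADAMTS-like genes and 3 TIMP genes. Just under the limit lay Adam7 with 19 counts, Adamts13 with 14 counts and Adam18 and Adam1b with 13 each, and Timp4 and Mmp1a had 4 counts each. Just above it lay Adamts19 with 21 counts and Mmp21 with 23.

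MMPs are zinc enzymes made as inactive precursors, mostly secreted and in some cases held in the plasma membrane, and between them they cut collagens, gelatin, proteoglycans and other matrix proteins. ADAM proteases sit in the membrane and release growth factors, cytokines and adhesion molecules from the cell surface, while the secreted ADAMTS proteases trim procollagens and cut proteoglycans, and the ADAMTS-like proteins resemble their non-catalytic part and bind matrix microfibrils. TIMP proteins occupy the active site of these enzymes, and cardiac fibroblasts are a main source of both the matrix of the heart and the enzymes that turn it over.

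Each of 4 groups held 3 libraries of primary cardiac fibroblasts from hearts of C57BL/6 mice, all kept in DMEM with fetal bovine serum. Cells received ethanol vehicle or 6 µM MCB-613-10-1, which the study describes as a derivative of MCB-613 with anti-fibrotic effects, for 4 h or 24 h. The labels do not say whether the libraries of a group came from separate animals or cultures, so p-values measure the spread between these libraries, which may be technical. The comparisons asked which proteases and inhibitors changed with the compound at each time, whether the response differed between the times, and how they changed in vehicle alone.

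The libraries held 26869195 to 31596784 counts at 4 h and 25016754 to 34877090 counts at 24 h. The summed level of 10 fibroblast markers was 13903 to 19630 CPM (counts relative to the library total, scaled by TMM factors over all 12 libraries) except in the 24 h treated libraries, where it was 6757 to 7100 CPM. Of the 10, 8 were called lower at 24 h, Ddr2 was called higher (0.62) and Dcn was not called. Among all genes tested at 24 h 38.0% were called lower and 36.7% higher, and these shares stand beside each marker count given here. Markers of other cells had fewer reads in sum than the fibroblast markers. Of 6 cardiomyocyte markers 5 stayed under 1 CPM in every library, and Tnnt2 had 5.08 to 21.4 CPM. The 13 macrophage and leukocyte markers summed to 77.8 to 119 CPM at 4 h. At 24 h they summed to 391 to 463 CPM in vehicle, where Lyz2 alone had a mean of 269 CPM, and to 172 to 196 CPM in treated cells. Of these 13, 11 were called lower at 24 h and Cd14 (1.09) and Csf1r (0.22) higher. The 7 smooth muscle and pericyte markers summed to at most 101 CPM at 4 h, 44.5 to 63.7 CPM in vehicle at 24 h and 16.0 to 18.0 CPM in treated cells at 24 h, and the 6 epicardial and mesothelial markers to 64.2 to 80.2 CPM, 77.7 to 91.2 CPM and 30.9 to 39.1 CPM. The 8 endothelial markers summed to 77.6 to 86.0 CPM at 4 h. At 24 h they summed to 54.8 to 63.0 CPM in vehicle and 51.8 to 53.0 CPM in treated cells. Of these 8, 3 were called higher at 24 h (Vwf 1.49, Kdr 0.77 and Cdh5 0.58) and 5 lower. Of 5 epicardial and mesothelial markers tested at 24 h, Krt19 was called higher (1.17) and 2 were called lower. The 4 Schwann cell markers summed to at most 2.37 CPM in any library. The part of these marker levels in the protease results was not tested, and in bulk libraries fewer cells of a type and less RNA per cell cannot be told apart.

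The promoters of Mmp13, Mmp10 and Mmp3 are shown because these neighbouring genes, which share a motif near the start site, had unlike values at 24 h. The RefSeq windows (build GRCm38.p6, plus strand, 250 bases before to 50 after the start) are chr9:7272264-7272563 for Mmp13, chr9:7502092-7502391 for Mmp10 and chr9:7445572-7445871 for Mmp3. Capitals mark matches, on either strand, to the AP-1 motif TGANTCA, the antioxidant response core TGANNNNGC and the heat shock element pair GAANNTTC.
Mmp13: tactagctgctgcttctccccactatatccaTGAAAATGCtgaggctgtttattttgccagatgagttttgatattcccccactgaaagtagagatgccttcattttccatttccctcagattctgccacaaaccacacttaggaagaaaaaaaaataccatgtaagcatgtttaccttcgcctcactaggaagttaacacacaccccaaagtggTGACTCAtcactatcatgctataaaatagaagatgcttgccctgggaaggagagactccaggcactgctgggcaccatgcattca
Mmp10: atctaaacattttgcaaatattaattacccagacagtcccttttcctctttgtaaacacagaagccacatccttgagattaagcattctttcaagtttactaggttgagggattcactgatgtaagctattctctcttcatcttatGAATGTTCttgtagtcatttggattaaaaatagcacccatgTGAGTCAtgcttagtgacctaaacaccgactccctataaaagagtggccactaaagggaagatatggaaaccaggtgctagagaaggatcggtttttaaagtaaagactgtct
Mmp3: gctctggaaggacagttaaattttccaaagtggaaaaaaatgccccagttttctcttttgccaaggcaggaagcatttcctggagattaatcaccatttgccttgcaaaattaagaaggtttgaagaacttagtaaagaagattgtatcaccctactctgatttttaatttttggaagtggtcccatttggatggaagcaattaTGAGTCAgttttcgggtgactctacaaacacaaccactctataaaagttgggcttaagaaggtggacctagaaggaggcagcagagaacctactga
The AP-1 match began 35 bases before the start in Mmp13, 63 bases before it in Mmp10 and 46 bases before it in Mmp3. It was also found among their neighbours in Mmp1b, 93 bases before the start, and in 1 of the 2 windows of Mmp12, 44 bases before it. Mmp13 also held an antioxidant response core match 219 bases before the start, and Mmp10 a heat shock element pair 104 bases before it. Among their neighbours the antioxidant response core was in the other window of Mmp12, 132 and 13 bases before the start. It was in Mmp8 as well, 170 bases before the start. Windows were found for 39 of the 63 genes. The AP-1 motif was in 6 of the 39 (15.4%) and in 8.97% of the 27025 genes with a window. The antioxidant response core, which can overlap an AP-1 match, was in 51.3% of the 39 against 45% of all, and the heat shock pair in 10.3% against 9.04%. A match describes the letters only.

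At 4 h the response was small. Of the 63 genes 51 passed the filter on low counts and were tested, none was called higher and 6 were called lower (11.8%) by edgeR's quasi-likelihood test at an adjusted p under 0.05: Adam19, Adamts5, Adamts6, Adamts10, Adamts12 and Timp3. At an unadjusted p under 0.05 edgeR placed 4 of the tested genes higher, and DESeq2 also placed 4 higher unadjusted and 0 after adjustment. Over all 15336 genes tested 7.16% were called, 3.45% higher and 3.71% lower. The median log2 fold change of the tested proteases and inhibitors was -0.02, beside -0.01 for all genes, and no protease or inhibitor gene was called with a change of 1 log2 unit or more, where 0.776% of all genes rose and 0.528% fell by that much. The treated libraries lay wholly above or below the vehicle libraries for 6 and 9 of the 51, while the groups did not overlap for 29.7% of all genes, 14.5% above and 15.2% below.

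At 24 h most of these genes were lower in treated cells. Of 54 tested, 36 were called lower (66.7%) and 7 higher (13.0%), while 74.7% of all 15575 genes tested were called, 38.0% lower and 36.7% higher. The fall was at least 1 log2 unit for 23 of them, against 18.0% of all genes, and the rise for 5, against 13.6%. Their median log2 fold change was -0.86, beside -0.02 for all genes. The treated libraries lay wholly below the vehicle libraries for 36 of the 54, where 39.1% of all genes did so, and wholly above for 8, where 38.3% did, and 77.4% of all genes did not overlap. Scaling by library totals alone moved the median of all genes to -0.21 and the share of calls that were higher from 49.1% to 39.0%. Under that scaling 6 of the tested proteases and inhibitors were called higher and 42 lower.

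By family, the ADAMTS genes had the lowest median at 24 h, -1.92, with 13 of 14 called lower and none higher. No ADAMTS gene was higher at an unadjusted p under 0.05 by edgeR either (0 genes), and DESeq2 placed 1 higher unadjusted and 0 after adjustment. The MMP genes split, with 4 called higher and 10 lower of 17 and a median of -0.88. Of the 15 ADAM genes 3 were called higher and 8 lower, with a median of -0.47, and of the 5 ADAMTS-like genes 4 were called lower, with a median of -1.16. Of the 3 inhibitors 1 was called lower. Over all genes tested at 24 h 38.0% were called lower and 36.7% higher.

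**Figure D1:**
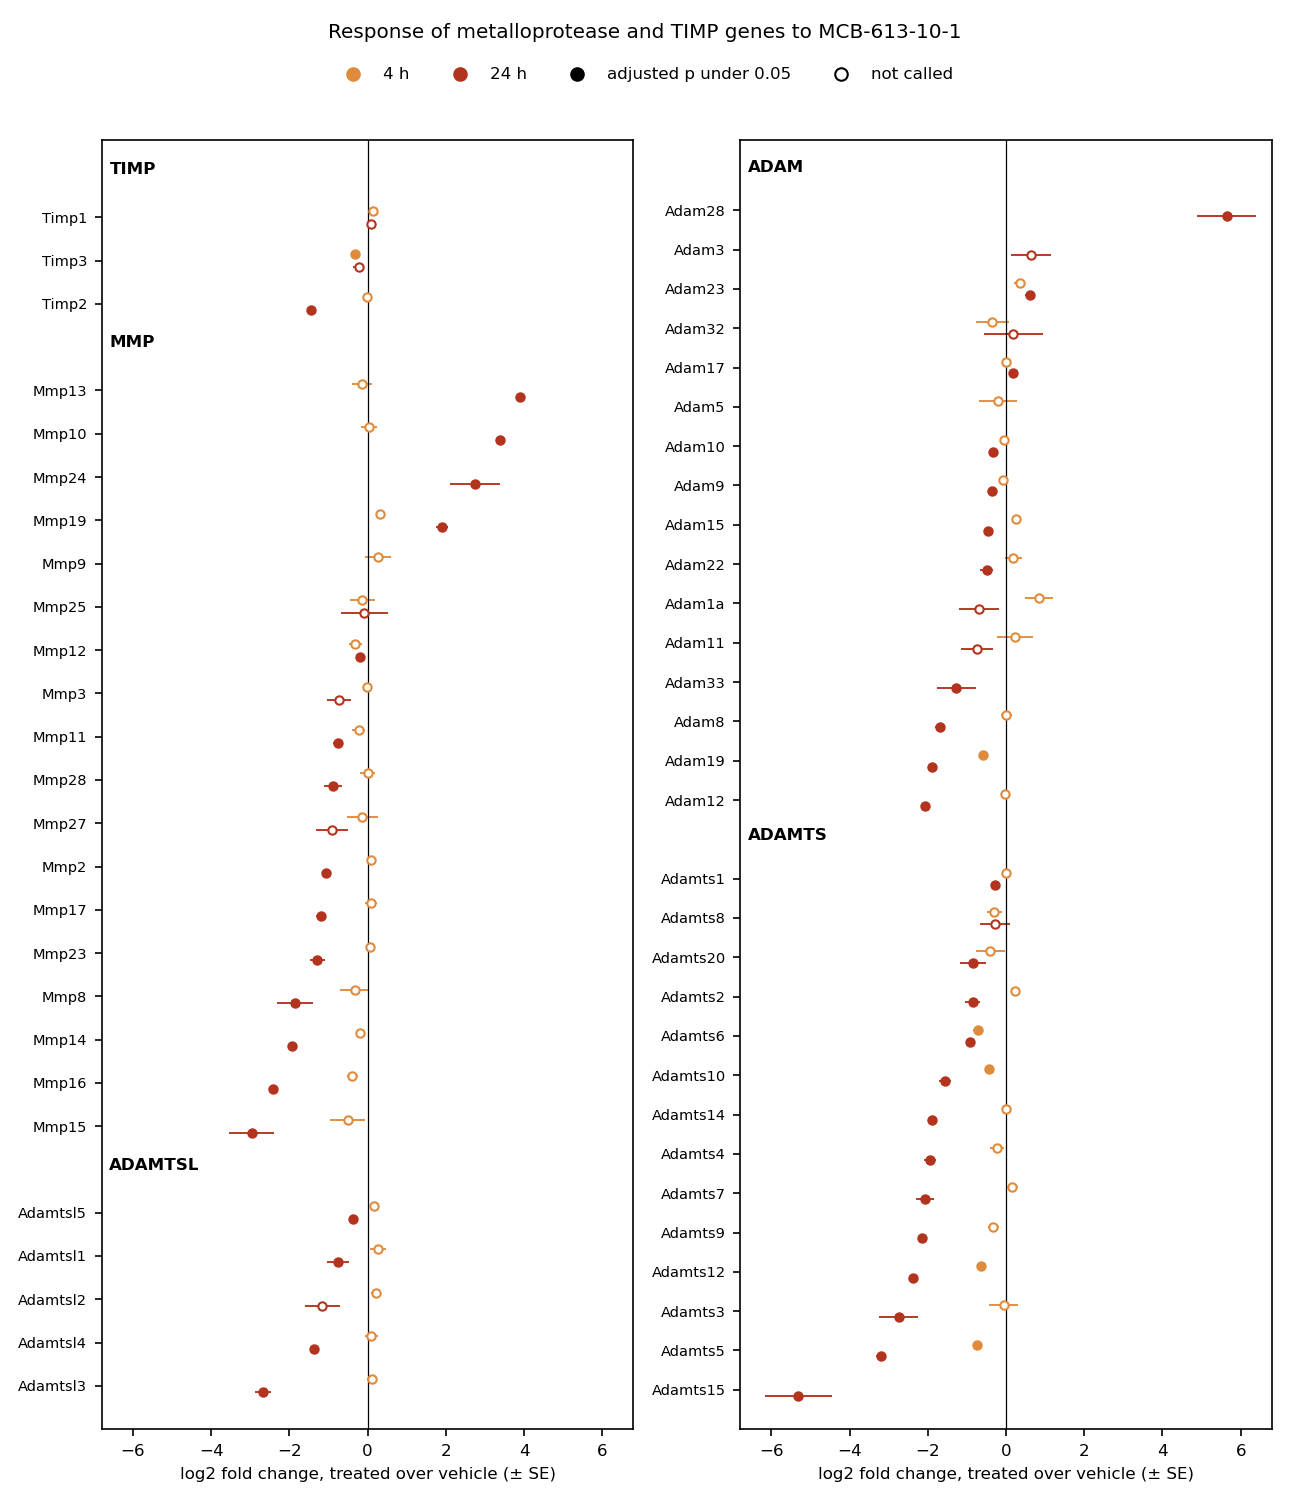
Log2 fold change of treated over vehicle cells (x axis, ± SE, 3 against 3 libraries) for each tested gene, by family, at 4 h (orange) and 24 h (red); filled points have an adjusted p under 0.05. At 4 h the points lie near 0, and at 24 h 36 genes were called lower and 7 higher; fitted values beyond 5 log2 units in Adam28 and Adamts15 rest on groups with at most 2 counts in all.

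Timp1 was by far the most abundant inhibitor, Timp2 was the inhibitor called lower at 24 h and Timp3 the one called lower at 4 h. Over the 12 libraries the mean deposited FPKM, which is scaled per transcript length, was 2396 for Timp1, 253 for Timp2 and 69.4 for Timp3. The genes lie on chromosome X from 20736405 to 20740974 (Timp1), on chromosome 11 from 118191895 to 118246566 (Timp2) and on chromosome 10 from 86136236 to 86185370 (Timp3) of GRCm39. Timp1, a broadly acting secreted inhibitor, stood at 2141, 2795 and 2599 CPM in vehicle and 2704, 2843 and 2684 CPM in treated cells at 4 h, and at 1680, 1716 and 1701 CPM in vehicle and 1854, 1748 and 1888 CPM in treated cells at 24 h. The 4 h groups overlapped, while all treated libraries at 24 h were above all vehicle libraries by a narrow margin. The log2 fold change at 24 h was 0.10 (SE 0.04, 95% interval 0.01 to 0.19) with an adjusted p of 0.050, not under the threshold. It was -0.09 (adjusted p = 0.043) when libraries were scaled by their totals, so its sign depends on the scaling. It was called higher with RLE scaling (0.12, adjusted p = 0.0267), by DESeq2 (0.10, adjusted p = 0.0289), with a filter of 1 CPM (0.11, adjusted p = 0.0321) and without treated replicate 2 at 24 h (0.13, adjusted p = 0.0142).

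Timp2, which besides inhibiting MMPs takes part with Mmp14 in activating the precursor of Mmp2, had 941, 1037 and 1215 CPM in vehicle and 1061, 962 and 1123 CPM in treated cells at 4 h. At 24 h it had 1438, 1339 and 1527 CPM in vehicle against 564, 539 and 478 CPM in treated cells. The groups overlapped at 4 h and were far apart at 24 h, with a log2 fold change of -1.45 (SE 0.07, 2.73-fold lower, adjusted p = 1.81e-10). Timp3, the inhibitor that binds to the matrix and also blocks several ADAM and ADAMTS enzymes, had 807, 749 and 894 CPM in vehicle and 630, 662 and 665 CPM in treated cells at 4 h. These groups did not overlap, and the log2 fold change of -0.32 (SE 0.09) was called with an adjusted p of 0.0428. The call was lost, with adjusted p of 0.123 to 0.166, without vehicle replicate 3 or without any 1 of the treated replicates, and by limma on FPKM (-0.31, adjusted p = 0.0901). At 24 h Timp3 had 469, 389 and 537 CPM in vehicle and 379, 429 and 393 CPM in treated cells, which overlapped, and the log2 fold change of -0.22 (adjusted p = 0.197) was not called. Without vehicle replicate 2 it was -0.35 with an adjusted p of 0.000236.

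That library, the 24 h vehicle replicate 2, was the lowest of its group for 34 of the 54 tested genes (63.0%), whereas it was the lowest for 33.7% of all genes tested. Without it Adam17 and Adam33 were no longer called at 24 h, Timp3, Mmp3, Mmp27 and Adamtsl2 were, and so were Adam5 and Adamts17, which were not tested at 24 h with every library. Over time in vehicle Adamts2 (0.42, adjusted p = 0.0018) and Adamtsl2 were then called, and of the differences between the responses Mmp3 was called and Adam22 and Mmp8 were not.

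Mmp13, the main collagenase of the mouse, stood low in 1 of the 4 groups. It lies on chromosome 9 from 7272514 to 7283331. At 4 h it had 381, 304 and 190 CPM in vehicle and 273, 295 and 226 CPM in treated cells. At 24 h it had 18.0, 15.8 and 19.1 CPM in vehicle and 277, 279 and 241 CPM in treated cells. The vehicle cells at 24 h were the only low group, and the treated cells at 24 h fell within the range of the 4 h libraries. The log2 fold change at 24 h was 3.90 (SE 0.08, 15-fold higher, adjusted p = 1.51e-13), and in vehicle from 4 h to 24 h it was -4.05 (SE 0.25, 16.5-fold lower, adjusted p = 7.88e-07). These comparisons share the 24 h vehicle libraries.

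Mmp10, or stromelysin 2, which cuts a broad set of matrix proteins and activates other MMP precursors, lies on chromosome 9 from 7502353 to 7510241. It had 11.5, 11.3 and 6.57 CPM in vehicle and 10.5, 11.7 and 8.0 CPM in treated cells at 4 h. At 24 h it had 2.80, 3.46 and 2.53 CPM in vehicle and 33.8, 27.3 and 32.2 CPM in treated cells. Here the treated cells at 24 h were above every other library and the vehicle cells at 24 h below every other one. The log2 fold change was 3.40 at 24 h (SE 0.12, 10.6-fold higher, adjusted p = 5.64e-15) and -1.75 in vehicle over time (adjusted p = 5.20e-06).

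Mmp3, or stromelysin 1, lies between them from 7445822 to 7455975 and had the highest mean FPKM of all MMPs, 80.5. It had 191, 173 and 165 CPM in vehicle and 184, 163 and 178 CPM in treated cells at 4 h, and 167, 106 and 189 CPM in vehicle and 108, 98.6 and 72.7 CPM in treated cells at 24 h. The 24 h groups overlapped because vehicle replicate 2 was low, and the log2 fold change of -0.73 (SE 0.30, 95% interval -1.54 to 0.08, adjusted p = 0.0853) was not called. Without that library it was -0.95 with an adjusted p of 0.0236. DESeq2 (adjusted p = 0.022) and limma on FPKM (adjusted p = 0.032) called it with all libraries.

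Mmp19, an MMP with substrates in basement membrane and other matrix, was the third clear rise, on chromosome 10 from 128626779 to 128636693. Its levels were 14.6, 15.2 and 17.1 CPM in vehicle and 19.9, 18.2 and 20.4 CPM in treated cells at 4 h, then 21.5, 18.5 and 27.4 CPM in vehicle and 78.7, 83.4 and 89.9 CPM in treated cells at 24 h. Treated libraries were above vehicle at both times. The 4 h log2 fold change of 0.32 was not called (adjusted p = 0.111), and that at 24 h was 1.90 (SE 0.15, 3.72-fold higher, adjusted p = 2.91e-05). The gene overlaps Tmem198b on the opposite strand, which had 4.99 to 18.5 CPM. Whether reads were counted by strand is not given in the sources used here.

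**Figure D2:**
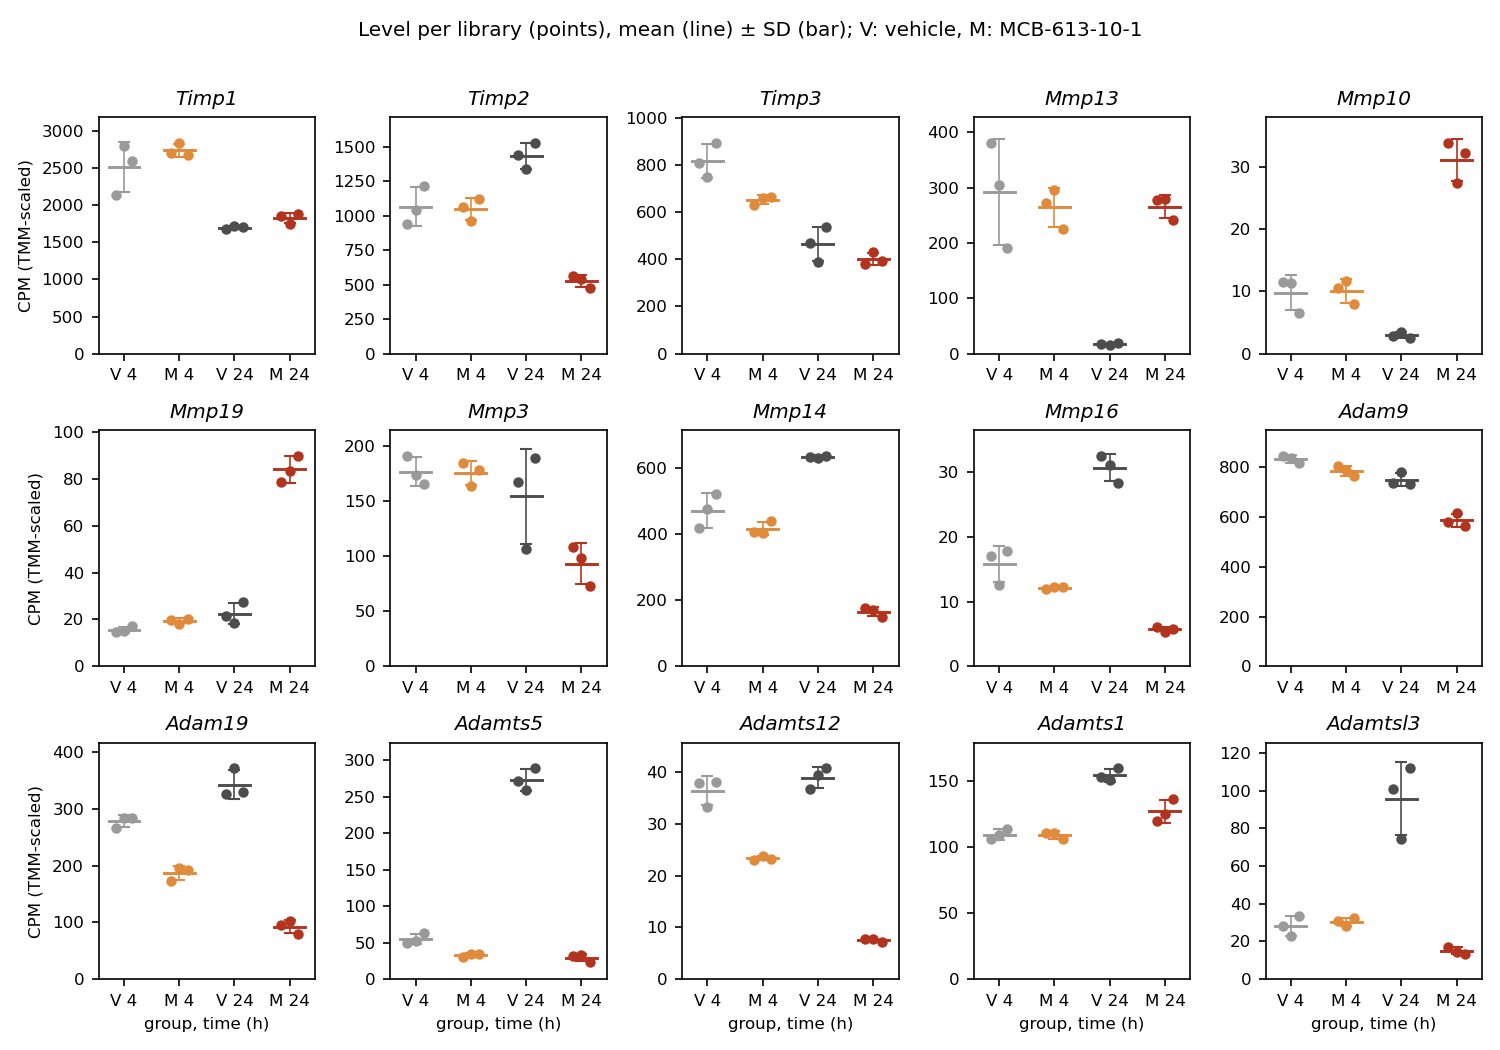
Level of 15 genes in each library (y axis, TMM-scaled CPM from 0; each panel has its own scale) for vehicle (V) and MCB-613-10-1 (M) at 4 h and 24 h; points are the 3 libraries, lines the mean and bars the SD. Mmp13 is low in the 24 h vehicle group alone (15.8 to 19.1 CPM), Mmp10 and Mmp19 are high in the 24 h treated group, and Timp2, Mmp14, Mmp16, Adam19, Adamts5 and Adamtsl3 are lower there than in the 24 h vehicle group.

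The membrane-type MMPs mostly fell at 24 h: 5 of 7 tested were called lower, 1 higher and 1 was not called. Of all genes tested 38.0% were called lower and 36.7% higher. Mmp14 (MT1-MMP), the main cell surface collagenase and activator of the Mmp2 precursor, lies on chromosome 14 from 54669069 to 54682821. It had 417, 474 and 521 CPM in vehicle and 407, 402 and 438 CPM in treated cells at 4 h, and 634, 630 and 637 CPM in vehicle against 177, 170 and 150 CPM in treated cells at 24 h. The 4 h groups overlapped and the 24 h groups did not, with a log2 fold change of -1.94 (SE 0.06, 3.84-fold lower, adjusted p = 3.94e-16). Mmp14 at 4 h was not called (-0.18, adjusted p = 0.28), but it was without vehicle replicate 1 (-0.26, adjusted p = 0.0309).

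Mmp16 (MT3-MMP) had 17, 12.6 and 17.9 CPM in vehicle and 11.9, 12.2 and 12.2 CPM in treated cells at 4 h, and 32.6, 31.2 and 28.4 CPM in vehicle against 6.14, 5.38 and 5.80 CPM in treated cells at 24 h. Treated libraries were the lower ones at both times, and the log2 fold change at 24 h was -2.42 (SE 0.10, 5.36-fold lower, adjusted p = 2.68e-14). At 4 h it was -0.39 and not called (adjusted p = 0.123), though it was called without vehicle replicate 2 (-0.53, adjusted p = 0.0353). Mmp15, Mmp23 and Mmp17 fell at 24 h by 2.96, 1.28 and 1.19 on the log2 scale. Mmp24 rose from 2, 4 and 1 counts in vehicle to 13, 12 and 13 counts in treated cells, and overlaps a more abundant gene on the opposite strand, BC029722. Mmp25 was not called at 24 h, but in vehicle it went from 76, 77 and 35 counts at 4 h to 12, 3 and 11 counts at 24 h.

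Of the gelatinases, Mmp2 had 222, 182 and 236 CPM in vehicle and 113, 100 and 97.6 CPM in treated cells at 24 h. Its groups did not overlap and the log2 fold change was -1.05 (SE 0.12, 2.07-fold lower, adjusted p = 0.000307), after 0.09 at 4 h (adjusted p = 0.528). Mmp9, the other gelatinase, had 3 to 23 counts in each library and was not tested at 24 h. The neutrophil collagenase Mmp8 went from 26, 27 and 28 counts in vehicle to 7, 7 and 3 counts in treated cells at 24 h and was called lower. Mmp11 and Mmp28, whose precursors are cut by furin-like convertases, fell by 0.76 and 0.88.

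Mmp12, the macrophage elastase, changed more with time than with the compound. It had 28.4, 26.5 and 21.9 CPM in vehicle at 4 h and 63.4, 64.7 and 63.3 CPM in vehicle at 24 h, a log2 change of 1.32 (adjusted p = 1.55e-06), and 55.4, 51.0 and 62.3 CPM in treated cells at 24 h. The 24 h response of -0.19 was called with an adjusted p of 0.0128 and was not called without treated replicate 2 or in a fit of all 12 libraries. Over the same groups the macrophage and leukocyte markers summed to 107 to 119 CPM, 391 to 463 CPM and 172 to 196 CPM, and their part in the Mmp12 values was not tested.

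Mmp13, Mmp10 and Mmp3 belong to a run of 8 Mmp genes within 309 kb of chromosome 9, counting only genes with deposited values. The order is Mmp13, Mmp12, Mmp1b, Mmp3, Mmp1a, Mmp10, Mmp8, Mmp27. Between Mmp13 and Mmp12 lie 61.0 kb and between Mmp3 and Mmp10 stands the near-silent Mmp1a with 4 counts. At 24 h Mmp13 (3.90) and Mmp10 (3.40) were called higher while Mmp12 (-0.19) and Mmp8 (-1.86) were called lower, and Mmp3 (-0.73, adjusted p = 0.0853) and Mmp27 (-0.90, adjusted p = 0.0573) were not called. Mmp27 was called with library totals, with no filter, without vehicle replicate 2 and without treated replicate 1. The adjacent Mmp13 and Mmp12 thus had unlike values, as did the adjacent Mmp10 and Mmp8. Mmp8 and Mmp27, 2.91 kb apart, both had negative values. Mmp1b, the mouse interstitial collagenase copy that overlaps the end of Mmp12 on the other strand, had 35 counts in all and was not tested.

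**Figure D3:**
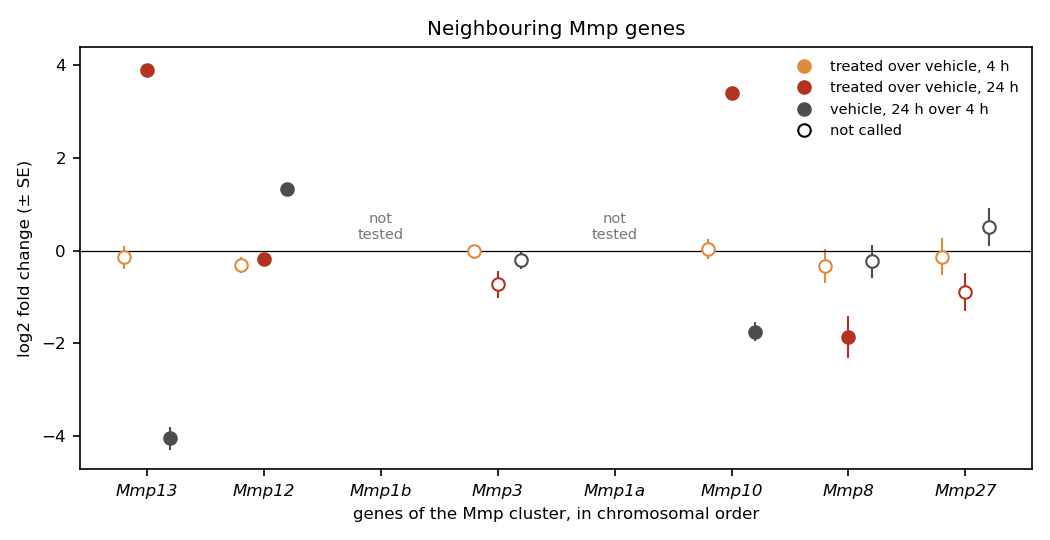
Log2 fold change (y axis, ± SE) of the 8 neighbouring Mmp genes, placed by their order on the chromosome, for treated over vehicle at 4 h (orange) and 24 h (red) and for vehicle at 24 h over 4 h (grey, from a fit of all 12 libraries); open points were not called and the 2 genes with the fewest counts were not tested. Mmp13 and Mmp10 are high at 24 h (3.90 and 3.40) and low in vehicle over time (-4.05 and -1.75), unlike the genes between them.

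The make-up of the MMP transcripts was unlike between the groups at 24 h. The summed MMP level was 377 ± 30.5 FPKM (SD, n = 3) in vehicle and 366 ± 6.52 FPKM in treated cells at 4 h, and 298 ± 37.1 FPKM in vehicle and 259 ± 21.1 FPKM in treated cells at 24 h. Of that sum Mmp13 made up 27.8% and 26.6% at 4 h, 2.13% in vehicle at 24 h and 36.4% in treated cells at 24 h. Mmp14 was the largest part in vehicle at 24 h with 34.5%, and made up 10.2% in treated cells. Mmp19 and Mmp10 together were a small part in vehicle at 24 h, 2.03% and 0.561%, and reached 8.77% and 6.64% in treated cells.

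The ratio of summed MMP to summed TIMP FPKM was 0.152, 0.111 and 0.106 in vehicle and 0.111, 0.106 and 0.107 in treated cells at 4 h. At 24 h it was 0.139, 0.116 and 0.144 in vehicle and 0.128, 0.128 and 0.109 in treated cells. The groups overlapped at both times, with means of 0.133 ± 0.0152 in vehicle and 0.122 ± 0.0113 in treated cells at 24 h (SD, n = 3), and no p is given because the genes were chosen with results known. Timp1 carried 81.8% to 91.8% of the TIMP sum as a group mean. Mmp3 and Timp1 were the most abundant of each family by mean FPKM over the 12 libraries. With both left out the ratio was 0.531 ± 0.00965 in vehicle and 1.20 ± 0.0331 in treated cells at 24 h. Within groups Mmp3 was not the largest part of the MMP sum. Mmp14 was the largest in vehicle at 24 h and Mmp13 in each other group, and both stayed in this ratio. These are transcript levels and say nothing of enzyme activity.

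**Figure D4:**
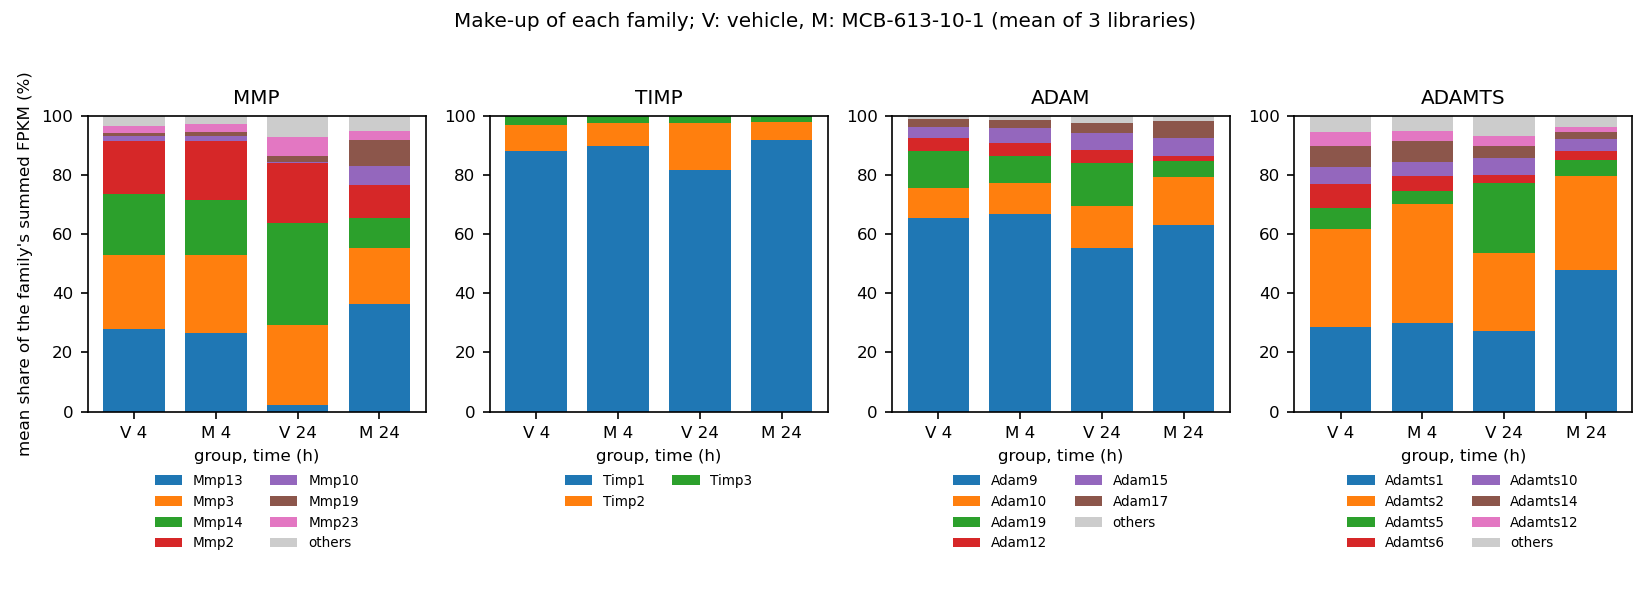
Share of each family's summed FPKM (y axis, percent, mean of 3 libraries) held by its main genes in vehicle (V) and MCB-613-10-1 (M) cells at 4 h and 24 h. Mmp13 shrinks to 2.13% of the MMP sum in the 24 h vehicle group, where Mmp14 reaches 34.5% and Adamts5 23.6% of the ADAMTS sum; in the 24 h treated group Adamts1 makes up 47.8% of the ADAMTS sum.

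Among the ADAM genes, Adam9 and Adam10 changed little at 24 h, while Adam12 and Adam19 fell further. Adam19 was itself abundant, with a mean of 30.6 FPKM over the 12 libraries beside 34.6 FPKM for Adam10. Adam9, the most abundant with a mean of 174 FPKM and a widely expressed sheddase, had 847, 837 and 815 CPM in vehicle and 803, 790 and 764 CPM in treated cells at 4 h, and 736, 782 and 734 CPM in vehicle and 580, 616 and 563 CPM in treated cells at 24 h. Treated cells were lower at both times without overlap, called at 24 h only (-0.36, SE 0.05, adjusted p = 9.79e-07). Adam10, which cuts Notch receptors and cadherins, had 227, 223 and 226 CPM in vehicle and 180, 185 and 175 CPM in treated cells at 24 h, after 164, 139 and 156 CPM against 152, 138 and 150 CPM at 4 h. It overlapped at 4 h and did not at 24 h, where the log2 fold change was -0.33 (SE 0.04, adjusted p = 1.21e-06).

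Adam17, the sheddase that releases TNF and several EGF receptor ligands, had 62.6, 53.8 and 57.0 CPM in vehicle and 60.1, 55.2 and 58.9 CPM in treated cells at 4 h. At 24 h it had 81.5, 77.0 and 89.3 CPM in vehicle and 94.0, 98.2 and 90.3 CPM in treated cells, which were higher by a small margin. The log2 fold change of 0.18 (SE 0.06, adjusted p = 0.00812) became -0.01 (adjusted p = 0.892) with library totals as the scaling. It was not called without vehicle replicate 2 (adjusted p = 0.0643) or without treated replicate 2 (adjusted p = 0.0521).

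Adam19, a membrane protease with a role in heart development, was lower at both times. It had 266, 285 and 285 CPM in vehicle against 173, 196 and 192 CPM in treated cells at 4 h, and 327, 372 and 330 CPM in vehicle against 96.2, 102 and 79.0 CPM in treated cells at 24 h. Neither time showed overlap, and the log2 fold change was -0.58 at 4 h (SE 0.08, 1.49-fold lower, adjusted p = 0.00169) and -1.90 at 24 h (SE 0.10, 3.73-fold lower, adjusted p = 1.23e-06). Adam12, which is expressed in mesenchymal cells, went from 161, 150 and 160 CPM in vehicle to 42.9, 36.2 and 33.1 CPM in treated cells at 24 h, a log2 change of -2.08 (4.22-fold lower), after -0.02 at 4 h. Adam8, a protease known from leukocytes, had 25.5, 24.1 and 29.0 CPM in vehicle and 9.77, 6.84 and 7.80 CPM in treated cells at 24 h (-1.70), and rose in vehicle with time by 1.87 on the log2 scale.

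Further falls at 24 h were Adam33 (-1.27), Adam22 (-0.50) and Adam15 (-0.47). Adam33 was not called by DESeq2, with no filter, in a fit of all 12 libraries, or when vehicle replicate 1 or 2 or treated replicate 2 or 3 was left out. Adam22 was not called by DESeq2, by limma or without vehicle replicate 3. Adam23, an ADAM without protease activity that acts in adhesion, had 13.9, 10.6 and 13.5 CPM in vehicle and 18.8, 21.0 and 18.4 CPM in treated cells at 24 h, and 12.1, 12.1 and 16.4 CPM against 17.3, 16.8 and 17.8 CPM at 4 h. It was higher in treated cells at both times without overlap, called at 24 h (0.60, SE 0.11, adjusted p = 4.69e-05) and not at 4 h (0.35, adjusted p = 0.143). Adam28 was close to silent in vehicle at 24 h with 0, 2 and 0 counts, and had 37, 19 and 34 counts in treated cells. It was called higher, but its level stayed low, with a mean of 0.126 FPKM.

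Of the 7 ADAMTS proteoglycanases, which cut aggrecan and versican, 6 were called lower at 24 h, beside 38.0% of all genes. Adamts5, a major aggrecanase, lies on chromosome 16 from 85653061 to 85698716. It had 49.5, 52.7 and 62.8 CPM in vehicle and 30.5, 34.9 and 33.7 CPM in treated cells at 4 h, and 271, 259 and 289 CPM in vehicle against 31.2, 33.1 and 24.1 CPM in treated cells at 24 h. The vehicle cells at 24 h were the high group, and treated cells at 24 h lay near those at 4 h. The log2 fold change was -0.74 at 4 h (SE 0.11, 1.67-fold lower, adjusted p = 0.00193) and -3.21 at 24 h (SE 0.12, 9.27-fold lower, adjusted p = 2.93e-07), and in vehicle over time it was 2.31 (4.96-fold higher, adjusted p = 3.60e-11).

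Adamts1, its neighbour 53.1 kb away, had 106, 109 and 114 CPM in vehicle and 111, 111 and 106 CPM in treated cells at 4 h, and 153, 151 and 160 CPM in vehicle and 120, 125 and 137 CPM in treated cells at 24 h. The 4 h groups overlapped (adjusted p = 0.998) and the 24 h change was small, at -0.29 (SE 0.05, adjusted p = 5.26e-05). Adamts9 had 11.2, 11.7 and 11.2 CPM in vehicle and 7.59, 10.3 and 9.26 CPM in treated cells at 4 h, and 33.0, 29.4 and 34.2 CPM in vehicle against 8.33, 6.54 and 7.27 CPM in treated cells at 24 h. Treated cells were lower at both times, called at 24 h (-2.14, SE 0.10, 4.40-fold lower, adjusted p = 3.53e-13) but not at 4 h (-0.33, adjusted p = 0.176).

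Adamts15 went from 32, 19 and 69 counts in vehicle to 0, 0 and 2 counts in treated cells at 24 h. Adamts20 fell by 0.85, and was not called by DESeq2 or without vehicle replicate 1 or treated replicate 2. Adamts8, 20.1 kb from Adamts15, was not called at 24 h (-0.29, adjusted p = 0.496) but fell in vehicle with time, from 3.81, 6.17 and 5.20 CPM to 0.727, 1.45 and 0.873 CPM (-2.32, adjusted p = 6.89e-07).

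All 3 procollagen N-propeptidases, which remove the amino-terminal propeptides of fibrillar procollagens, were called lower at 24 h, beside 38.0% of all genes. Adamts2, the most abundant ADAMTS gene with a mean of 23.4 FPKM, had 203, 219 and 251 CPM in vehicle and 238, 260 and 284 CPM in treated cells at 4 h, and 277, 206 and 322 CPM in vehicle and 155, 150 and 145 CPM in treated cells at 24 h. The 4 h groups overlapped, and the 24 h log2 fold change was -0.85 (SE 0.19, 1.80-fold lower, adjusted p = 0.0143). Without treated replicate 2 or 3 the adjusted p was 0.0527 or 0.0587. Adamts14 fell at 24 h by 1.89 and Adamts3, at 1 to 64 counts in each library, by 2.75.

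Adamts12 and Adamts7, which cut the cartilage oligomeric matrix protein COMP, fell at 24 h. Adamts12 had 37.9, 33.3 and 38.2 CPM in vehicle against 23.0, 23.8 and 23.3 CPM in treated cells at 4 h, and 36.8, 39.4 and 40.8 CPM in vehicle against 7.71, 7.76 and 7.27 CPM in treated cells at 24 h. Vehicle cells were alike at both times and treated cells lower at both, with log2 fold changes of -0.64 (SE 0.10, 1.56-fold lower, adjusted p = 0.00215) and -2.37 (SE 0.08, 5.16-fold lower, adjusted p = 4.24e-15). Adamts7, which overlaps the more abundant Tbc1d2b on the opposite strand, fell by 2.07.

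Adamts6 and Adamts10, a related pair that acts on fibrillin microfibrils, were lower at both times. Adamts6 had 52.7, 39.6 and 41.5 CPM in vehicle and 27.8, 26.9 and 26.7 CPM in treated cells at 4 h, and 22.5, 21.8 and 21.6 CPM in vehicle and 11.2, 13.9 and 9.66 CPM in treated cells at 24 h. No groups overlapped, and the log2 fold changes of -0.72 (SE 0.12, adjusted p = 0.00327) and -0.92 (SE 0.11, adjusted p = 3.84e-07) stood side by side. Their difference was not called by the interaction test (-0.20, adjusted p = 0.347), though it was without vehicle replicate 1 at 4 h (-0.34, adjusted p = 0.0488). Adamts10 had 31.6, 34.4 and 38.2 CPM in vehicle and 26.2, 24.3 and 26.2 CPM in treated cells at 4 h, and 50.6, 46.3 and 55.3 CPM in vehicle and 20.6, 17.5 and 13.3 CPM in treated cells at 24 h. Its log2 fold change was -0.44 at 4 h (SE 0.10, adjusted p = 0.0223) and -1.57 at 24 h (SE 0.15, adjusted p = 6.64e-05). The 4 h call was lost without vehicle replicate 2 or 3 and without any 1 of the treated replicates, with adjusted p of 0.0513 to 0.12, and by limma on FPKM (adjusted p = 0.0591).

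Of the ADAMTS-like genes, Adamtsl3 had the largest fall. It had 28.3, 22.8 and 33.4 CPM in vehicle and 30.8, 28.2 and 32.4 CPM in treated cells at 4 h, and 101, 74.3 and 112 CPM in vehicle and 17.2, 14.5 and 13.5 CPM in treated cells at 24 h. The 24 h vehicle cells were the high group, and the log2 fold change was -2.67 (SE 0.21, 6.37-fold lower, adjusted p = 0.000202). Adamtsl4, which binds fibrillin microfibrils, had 19.7, 21.8 and 21.3 CPM in vehicle and 8.83, 6.97 and 8.86 CPM in treated cells at 24 h (-1.36, SE 0.11, adjusted p = 7.99e-10), after 13.1, 16.3 and 22.0 CPM and 16.4, 18.4 and 20.1 CPM at 4 h.

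Adamtsl5, the most abundant of the 5 with a mean of 15.3 FPKM, had 85.4, 94.8 and 92.5 CPM in vehicle and 89.9, 108 and 108 CPM in treated cells at 4 h, and 58.5, 60.5 and 57.9 CPM in vehicle and 52.5, 45.7 and 40.1 CPM in treated cells at 24 h. It overlapped at 4 h and was lower at 24 h (-0.36, SE 0.08, adjusted p = 0.000789). Adamtsl1 fell by 0.76, and was not called by DESeq2, by limma, or without vehicle replicate 3 or treated replicate 1 or 3. Adamtsl2 had 13.6, 6.5 and 18.0 CPM in vehicle and 5.32, 5.01 and 6.91 CPM in treated cells at 24 h, and was called only when vehicle replicate 2, the lowest vehicle library, was left out or under other settings given in the closing section.

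The response at 24 h differed from that at 4 h for most of these genes. In the interaction test over all 12 libraries 56 genes were tested, 32 had a lower and 5 a higher response at 24 h than at 4 h. Of all 16341 genes tested 53.8% were called, 27.1% lower and 26.7% higher. Their median difference was -1.0 log2 units, beside -0.00 for all genes. The 5 higher ones were Mmp13 (4.05), Mmp10 (3.37), Mmp19 (1.58), Mmp24 and Adam28.

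In vehicle alone 23 of the 56 were called higher at 24 h than at 4 h and 12 lower, where 54.3% of all genes were called, 27.4% higher and 27.0% lower. The rises included Adamts5 (2.31), Adam8 (1.87), Adamtsl3 (1.76), Adamts9 (1.5), Mmp12 (1.32), Mmp23 (1.10) and Mmp16 (0.96), and the falls Mmp13 (-4.05), Mmp25 (-3.02), Adamts8 (-2.32), Mmp10 (-1.75), Adamts6 (-1.02), Timp3 (-0.81), Adamtsl5 (-0.62) and Timp1 (-0.56). Of the proteoglycanases 5 of 7 were called higher with time and 1 lower. The 24 h vehicle libraries enter this comparison and the 24 h response, so the values of both are set side by side and no relation between them is given.

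Among 31 listed regulators of these enzymes 26 were tested. At 4 h 3 were called higher (11.5%, beside 3.45% of all genes) and 2 lower (7.69%, beside 3.71%), the largest being Serpinf2 (0.84), the plasmin inhibitor, Plau (-0.70), the urokinase that makes plasmin, and Plaur (0.45), its receptor. At 24 h 8 were called higher (30.8%) and 10 lower (38.5%), shares near the 36.7% and 38.0% of all genes, with a median of -0.12. The largest were Plaur (2.73), Serpinf2 (2.26) and Tspan15 (2.17), a tetraspanin partner of ADAM10. Plau fell at 24 h by 2.02. Rhbdf2, the iRhom that escorts ADAM17 to the surface, rose by 0.40 at 4 h and 1.53 at 24 h. Reck, a membrane-anchored MMP inhibitor, fell by 1.26 at 24 h, and Furin, a convertase that activates membrane-type MMPs, rose by 0.42. Of the other listed convertases Pcsk5 (-0.66) and Pcsk6 (-0.57) were called lower at 24 h and Pcsk7 (0.00) was not called. Reck, the convertases and Rhbdf2 are named for their role after their values were seen.

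Of 27 listed substrates 25 were tested. At 4 h Notch2 was called higher (0.32) and Hbegf lower (-0.55), and at 24 h 7 were called higher (28%, beside 36.7% of all genes) and 13 lower (52%, beside 38.0%) with a median of -0.59. The largest changes were Col2a1 (-3.24), Areg (2.99), the ADAM17 substrate amphiregulin, and Col3a1 (-2.80). The first 2 had few counts at 24 h. Col2a1 had 287, 242 and 231 counts in vehicle and 24, 14 and 23 in treated cells. Areg had 11, 4 and 8 counts in vehicle and 38, 68 and 38 in treated cells. All 6 procollagen genes on the list, the substrates of the N-propeptidases, fell at 24 h, by 0.59 for Col5a2 to 3.24 for Col2a1.

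Of the 63 genes, 7 were tested at neither time: Adam21, Adam30, Adam4, Adamts17, Adamts19, Mmp1b and Mmp21. A further 5 were tested only at 24 h (Adam28, Adam3, Adam33, Adamts15 and Mmp24) and 2 only at 4 h (Adam5 and Mmp9). At 24 h the genes tested and not called were Timp1, Timp3, Mmp3, Mmp25, Mmp27, Adam3, Adam32, Adam1a, Adam11, Adamts8 and Adamtsl2. In the authors' deposited table none of the 63 was called higher and 6 lower at 4 h, and 9 higher and 34 lower at 24 h. It shared with the present test all 6 calls at 4 h and, in the same direction, 7 higher and 32 lower calls at 24 h. Of the 63 genes 28 overlap another annotated gene, 13 of them one that reached 1 CPM, and reads of such pairs may not be told apart.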

How the data were processed

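RNA was sequenced in 12 libraries, 3 in each of 4 groups. Per the submitters' processing notes, which give no roles or order, the tools were HISAT2 2.0.5, featureCounts 1.5.0-p3, DESeq2 and DESeq, with build GRCm39 (mm39). The authors deposited raw counts per gene and FPKM values for each library in 1 table per time, and their own log2 fold changes and adjusted p-values. The deposited tables also hold the authors' signal per library (counts divided by a size factor), which was not used. Its group means at 24 h carry a prefix that is not explained. Strand was not stated.

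Raw counts were tested with edgeR 4.0.16 (quasi-likelihood, robust, filterByExpr, TMM, Benjamini-Hochberg over all genes, call at adjusted p under 0.05) in R 4.3.3. Each response used the 6 libraries of its time, and the interaction and the vehicle comparison used all 12. The fit was tested on simulated counts first. CPM is TMM-scaled over the 12 libraries. Levels of different proteases and inhibitors were compared by FPKM. Marker sums, and genes that overlap a protease gene, were compared by CPM, which is not scaled by length. Alternatives were DESeq2 1.42.0, limma 3.58.1 on log2(FPKM + 0.1), other scalings and filters, the replicate number as a block, and leaving out each library.

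Genes named with values in every library were the TIMPs, the 3 most abundant of each other family by FPKM, and at each time the 5 largest called rises and falls with at least 0.5 FPKM in the higher group. Mmp2, Mmp12, Adam12, Adam8, Adamtsl2 and those given by raw counts were named by their class or as exceptions after their values were seen. The members, lists and tests were chosen with earlier results of these data known. Splitting the ADAM genes by a catalytic motif was planned from protein sequences, which were not used here. The fold changes of Adamts4 are counted and plotted with the others but not described in the text. Promoter windows are RefSeq's (GRCm38.p6) and were matched by symbol. The counting error of a value is set by its counts, with 25016754 to 34877090 counts in a library.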

Additional observations from a re-analysis of the deposited data

Results flagged for a closer look

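For 18 of the genes given with values in every library, the response to MCB-613-10-1 at 24 h differed from that at 4 h by edgeR's interaction test over all 12 libraries (adjusted p under 0.05). That test called 53.8% of all genes tested. Some of the genes given with values were picked as the largest changes at 24 h, so their count is not comparable with that share. Values are the 24 h minus the 4 h log2 fold change. The response was higher at 24 h for Mmp13 (4.05), Mmp10 (3.37) and Mmp19 (1.58). It was lower at 24 h for Adamtsl3 (-2.78), Adamts5 (-2.47), Mmp16 (-2.03), Adamts9 (-1.80), Mmp14 (-1.76), Adamts12 (-1.72), Adamtsl4 (-1.45), Timp2 (-1.42), Adam19 (-1.32), Adamts10 (-1.12) and Adamts2 (-1.06). Smaller differences were those of Adamtsl5 (-0.52), Adamts1 (-0.28), Adam9 (-0.27) and Adam10 (-0.27). The difference for Adam10 was not called without any 1 of 5 libraries, with adjusted p of 0.0508 to 0.0755, and that for Adamts1 without treated replicate 1 at 24 h (adjusted p = 0.0555). In vehicle 15 of the 18 were also called between the times, where 54.3% of all genes tested were. Examples were Mmp13 (-4.05) and Adamts5 (2.31), while Adamts12, Adamtsl4 and Adamts2 were not called. The interaction test that picked the 18 holds the same vehicle libraries, so this count and the share of all genes cannot be weighed against each other. The vehicle call of Adam9 was lost with library totals, with no filter and without any 1 of several libraries (edgeR adjusted p of 0.0512 to 0.149). Adamtsl4 gained a call with no filter, with the replicate block and without vehicle replicate 3 at 4 h. Groups of 3 were too small for the check on single outlying libraries.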

How the results depend on the processing

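The genes named with every library gave 1512 values under the other settings. Of these 1455 kept their call or lack of one, 31 lost the call and 24 gained it. A change of sign was counted only where the gene was called in either fit, and values called in neither are among the 1455 whatever their sign. By that count 2 changed sign, both with library totals as the scaling: Timp1 at 24 h to -0.09 and Adam17 at 24 h to -0.01. At 4 h 1 gene, Adam15, was called higher when all 12 libraries entered the fit, and by limma 4 were called lower. Leaving out 1 library at a time gave 0 to 0 genes called higher and 4 to 7 lower at 4 h, 7 to 8 higher and 32 to 40 lower at 24 h, 5 to 5 higher and 29 to 34 lower for the difference, and 21 to 25 higher and 10 to 12 lower in vehicle over time. The treated to vehicle ratio of the MMP to TIMP ratios was 0.834 to 0.997 at 4 h and 0.859 to 0.97 at 24 h in those fits. It was 2.26 at 24 h without Mmp3 and Timp1, the most abundant gene of each family by mean FPKM over the 12 libraries. Adamtsl2 at 24 h was called with library totals, DESeq2, limma, the replicate block, all 12 libraries, and without vehicle replicate 2. Over all genes 1098 were called at 4 h, 443 to 1760 with 1 library left out, 2198 with all 12 libraries and 1953 with the replicate block. Library totals moved the share of 4 h calls that were higher from 48.2% to 34.5%. To look for pairing, the deviations of each library from its group mean were correlated between vehicle and treated libraries. For same-numbered libraries this gave 0.0832 to 0.109 at 4 h and -0.043 to 0.02 at 24 h. The numbers were therefore not taken to pair the libraries. The deviations of each 4 h library did correlate best with those of its own number, but this is a hint from the data only. With the replicate block 0 genes were called higher and 6 lower at 4 h, 7 and 37 at 24 h, 5 and 33 for the difference, and 24 and 11 in vehicle over time. The limma fit was not run for vehicle over time because the FPKM tables were scaled separately. The causes of these changes were not tested. Genes with few counts (Adam28, Mmp24, Mmp15, Mmp8, Adamts15, Adam33) were not tested under the stricter filter.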
